A study of Danio rerio with 60 samples.

Results

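Zebrafish larvae exposed to 4.05 µM resorcinol were compared with larvae given the carrier alone, by RNA sequencing of whole animals. The comparison took 10 of the 60 samples of the series, 5 exposed pools and 5 control pools, and all 27488 genes of the deposited resorcinol table. Samples were chosen by their sample description, which names resorcinol and the dilution, because raloxifene's short name stands in the titles and treatment labels of the exposed resorcinol pools. The dose row inside the table equalled the labelled dose in all 30 resorcinol libraries. Every sample was RNA from 20 larvae of the AB/Tub background, held in HEPES-buffered E3 with or without resorcinol between 72 and 120 hours post-fertilization. The control pools received 1% carrier, which the labels do not name. For the exposed pools the labels give no carrier percentage. The other resorcinol groups used for reference were 0.0405, 0.405, 40.5 and 405 µM, with 5 pools each, and the 4.05 µM pools were paired with controls by replicate number. Whether the pools were separate spawnings is not stated, and the p-values measure only how these pools spread. The 10 libraries held 7.92 to 10.5 M recovered reads.

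Resorcinol is a small phenol that inhibits thyroid peroxidase, the enzyme that iodinates thyroglobulin during thyroid hormone synthesis. Thyroid hormone acts through nuclear receptors and is broken down by the type 3 deiodinase, and in the vertebrate retina it controls which opsin a cone expresses. Cone opsins capture light, a cone phosphodiesterase and cyclic nucleotide-gated channels carry the signal, and guanylate cyclase activating proteins restore cyclic GMP afterwards. Whole larvae hold all tissues, and genes of several expected tissues were measured: 47 of 47 phototransduction genes, 46 of 47 liver genes, 36 of 37 muscle genes and 24 of 24 keratin and skin genes passed the filter on low values. Other lists were covered less well. The filter kept 45 of 55 lens, 18 of 30 thyroid axis, 12 of 21 inflammation, 12 of 19 blood and 6 of 16 estrogen genes. In such bulk RNA, fewer cells of a type and less RNA per cell cannot be told apart.

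The libraries labelled replicate 3 at 4.05 and 40.5 µM stood apart from their groups, and results are therefore given with and without replicate number 3. The separation was found in earlier results of these same data. For 20 genes that differed between the 2 doses in the other 4 replicates, replicate 3 had the opposite sign in 20 of 20. Over all genes tested the share of opposite sign was 52.5%. The 20 were selected with replicate 3 left out, after it had been singled out. For these genes both libraries went against their labels, and whether the 2 labels were exchanged cannot be told from the files. Each value that includes replicate 3 takes the labels as given. What set these libraries apart was not tested. Their values are described in full further on.

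No gene passed the test between 4.05 µM and control. With all 5 replicates, 0 of 19583 genes tested (0%) had an adjusted p under 0.05 in limma, and the lowest adjusted p was 0.9996. Without replicate 3 it was again 0, of 19392 genes, with a lowest adjusted p of 0.999997. An unadjusted p under 0.05 was found for 762 genes (3.89%), 408 higher and 354 lower at 4.05 µM, and for 748 genes (3.86%) without replicate 3. On the recovered reads edgeR called 0 genes in both sets of libraries, where 688 and 646 had an unadjusted p under 0.05. DESeq2 called 0 genes with all replicates and 1 without replicate 3, where 554 and 533 had an unadjusted p under 0.05. The median standard error of a log2 difference was 0.15, and 0.17 without replicate 3.

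The measurement bounded most genes closely. For 18077 genes (92.3%) the 95% interval of the difference lay within 2-fold in either direction, and for 13334 (68.1%) it lay within 1.5-fold. Without replicate 3 the interval lay within 2-fold for 17049 genes (87.9%). An estimated difference over 2-fold was found for 25 genes with all replicates and for 65 without replicate 3. Every gene tested has an adjusted p of at least 0.9996 for 4.05 µM against control in limma. The 95% intervals that follow are not adjusted for the number of genes.

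Among genes with a mean count of at least 50 in a group, an unadjusted p under 0.01 and the same direction in every pair, the 3 largest estimates were of genes higher at 4.05 µM. The transcript lgals1l1, which encodes a galectin, a lectin that binds galactose-containing sugars, had normalized counts of 229, 210, 238, 108 and 180 in the controls. At 4.05 µM they were 373, 346, 276, 407 and 380. All 5 exposed pools lay above all 5 controls, and the control of replicate 4 was the lowest of the 10. The log2 difference of lgals1l1 was 0.92 ± 0.22 (SE; 95% interval 0.46 to 1.38), and 1.1 ± 0.23 without replicate 3. It was the 1 gene that DESeq2 called without replicate 3, with an adjusted p of 0.0378. Over the 15 alternatives run for that value the adjusted p of lgals1l1 ranged from 0.0378 to 1, the next lowest being 0.164. The level did not follow the dose, with group means of 193 ± 52.3 in controls, 337 ± 84.7 at 0.0405 µM, 229 ± 50.6 at 0.405 µM, 356 ± 49.6 at 4.05 µM, 248 ± 48.1 at 40.5 µM and 165 ± 52.8 at 405 µM (SD, n = 5 each).

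The uncharacterized gene si:dkey-73p2.4 had control counts of 26.1, 41.1, 45.5, 37.0 and 44.7, and counts of 60.9, 100.7, 51.3, 93.9 and 77.3 at 4.05 µM. Its groups did not overlap either, and its log2 difference was 0.95 ± 0.28 (SE; 95% interval 0.37 to 1.52). Replicate 3 held the lowest exposed value, and the difference without it was 1.14 ± 0.33. Its mean was 38.9 ± 7.89 counts in controls (SD, n = 5). From the lowest dose to the highest the means were 67.1 ± 14.0, 69.7 ± 19.3, 76.8 ± 21.0, 64.4 ± 34.1 and 58.7 ± 19.4. Every dose thus had a higher mean than the controls, and the rise was not particular to 4.05 µM. The third, si:ch211-226h7.3, had a log2 difference of 0.92 ± 0.31, but its levels ran from 7.15 to 100.6 in the controls and from 15.5 to 103 at 4.05 µM, so the groups overlapped along nearly their whole range. Next came arap1a, an Arf GTPase-activating protein gene, at 0.78 ± 0.23, FBN2, the gene of the microfibril protein fibrillin 2, at 0.69 ± 0.20, and PRKCH (ENSDARG00000043243), a protein kinase C gene, at 0.62 ± 0.21. Without replicate 3, FBN2 (0.66 ± 0.24, unadjusted p = 0.013) and PRKCH (0.68 ± 0.26, unadjusted p = 0.014) no longer met the limit on p in limma. The same choice without replicate 3 added zgc:153932 at 1.28 ± 0.43 and the lipid-binding START domain gene stard14 at 0.81 ± 0.22. For zgc:153932 the difference in pair 4 was 3.19, above that of every other pair, with 16.7 counts in control replicate 4.

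**Figure D1:**
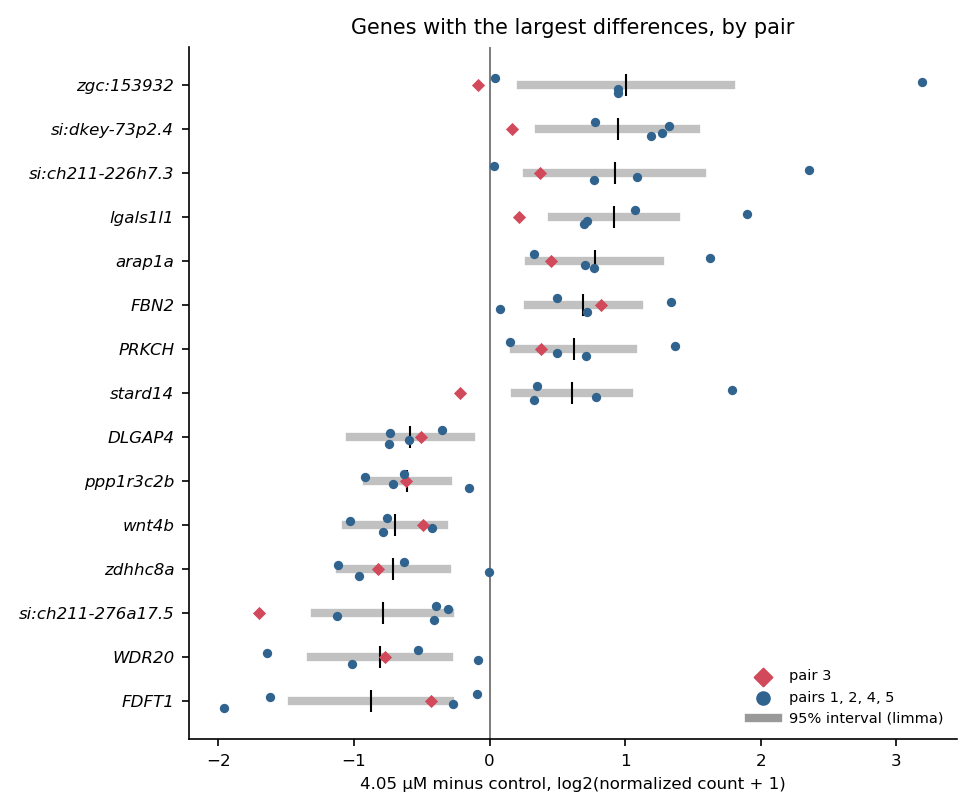
Log2 differences between 4.05 µM resorcinol and control for the 15 genes with the largest differences under the limits on p, count and direction, with all replicates or without replicate 3. Points are the 5 replicate pairs, with pair 3 as diamonds. Black ticks and grey bars are the limma estimate and its 95% interval over all replicates. Pair 4 gave the highest point for all 8 genes above 0, and pair 3 lay below 0 for zgc:153932 and stard14.

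Among genes that were lower at 4.05 µM in every pair, the Wnt ligand gene wnt4b had 93.3, 50.6, 75.2, 101.3 and 50.8 counts in controls and 53.8, 37.4, 53.2, 49.0 and 29.7 at 4.05 µM. Within each pair the exposed pool was the lower one, while the groups as a whole overlapped. Its log2 difference was -0.70 ± 0.18 (SE; 95% interval -1.06 to -0.33), and -0.75 ± 0.17 without replicate 3. The gene ppp1r3c2b, for a subunit that targets protein phosphatase 1 to glycogen, had 119, 59.0, 76.2, 174 and 84.4 counts in controls and 108, 35.7, 49.4, 91.4 and 54.0 at 4.05 µM. Its difference was -0.61 ± 0.15, and -0.60 ± 0.17 without replicate 3. The palmitoyltransferase gene zdhhc8a differed by -0.71 ± 0.19, although in pair 2 its counts were 52.7 and 52.6. For ppp1r3c2b the mean was 103 in controls and ran from 67.6 to 94.0 over the doses from 0.0405 to 405 µM. For zdhhc8a it was 65.4 in controls and 32.5 to 56.6 over the doses. Both were thus lower than control at every dose. By contrast, wnt4b had a mean of 74.2 in controls and 75.4 at 405 µM.

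Under the same limits on p and count, the largest negative estimate belonged to FDFT1, the squalene synthase gene of cholesterol synthesis, at -0.88 ± 0.28. Its counts were 26.1, 47.4, 64.6, 60.8 and 70.13 in controls and 5.97, 39.2, 47.5, 19.1 and 65.7 at 4.05 µM, so pairs 1 and 4 gave most of the difference. WDR20 (ENSDARG00000041239), for a WD-repeat cofactor of deubiquitinases, differed by -0.81 ± 0.25. Without replicate 3 WDR20 was at -0.82 ± 0.30 and no longer met the limit on p (unadjusted p = 0.013 in limma). DLGAP4, for a postsynaptic scaffold protein, met the limits only without replicate 3, at -0.60 ± 0.21, compared with -0.58 ± 0.22 with all replicates. The control means of FDFT1, WDR20 and DLGAP4 were 53.8, 57.7 and 65.9 counts. Over the doses from 0.0405 to 405 µM their means ran from 34.1 to 50.3, from 28.3 to 37.6 and from 41.3 to 53.9. Every dose thus lay below the controls, and these falls were not particular to 4.05 µM. The gene si:ch211-276a17.5 had 315, 313, 305, 463 and 207 counts in controls and 237, 143, 93.1, 374 and 158 at 4.05 µM. Replicate 3 was its lowest exposed value, and leaving replicate 3 out moved the log2 difference from -0.79 ± 0.24 to -0.56 ± 0.18. The means of this gene fell with the dose, from 321 in controls to 313, 271, 201, 117 and 107. At 40.5 µM it was called against control, at -1.53 ± 0.24 (adjusted p = 0.0076 in limma, all replicates). Without replicate 3 it was also called between 4.05 and 40.5 µM, at 1.23 ± 0.18.

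Few genes separated the 2 groups completely. All 5 exposed pools lay above all 5 controls for 12 genes (0.0613% of those tested) and below them for 3 (0.0153%). These 15 were found by their values. Beside lgals1l1 and si:dkey-73p2.4, the higher ones included CIAO3, a gene of cytosolic iron-sulfur cluster assembly, with 111 to 120.70 counts in controls and 120.73 to 189 at 4.05 µM, so the groups nearly touched. They also included mpdu1a of mannose-dolichol use, cyp46a1.2 of the cholesterol 24-hydroxylase family and the small GTPase gene ARL3 (ENSDARG00000056794). The uncharacterized gene si:dkey-253d23.1 had the lowest unadjusted p of all genes tested, but fell under the mean count of 50. It had 1.24, 7.38, 5.29, 8.35 and 6.10 counts in controls and 8.36, 13.4, 15.2, 16.6 and 21.2 at 4.05 µM, so the groups nearly touched. Its log2 difference was 1.35 ± 0.28 (SE; 95% interval 0.77 to 1.93), and 1.35 ± 0.33 without replicate 3. Across the 24 alternatives run with all replicates it stayed above 0, with a lowest value of 0.67 at a pseudocount of 10 and adjusted p from 0.430 to 0.999997. The 3 lower genes were si:ch211-245n8.4, PLPPR2 (ENSDARG00000101478) and the smooth muscle myosin gene MYH11 (ENSDARG00000100972). Of these, si:ch211-245n8.4 had 15.9 to 22.7 counts in controls and 8.02 to 10.6 at 4.05 µM, a log2 difference of -1.04 ± 0.25, and -1.16 ± 0.30 without replicate 3. All 5 pairs were higher for 588 genes (3%) and lower for 492 (2.51%).

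Among 55 genes of xenobiotic metabolism tested, none passed, and 3 had an unadjusted p under 0.05, all 3 higher at 4.05 µM, beside 408 of 19583 higher over all genes. Without replicate 3 there were 3 higher and 1 lower. Their median log2 difference was 0.089, beside 0.0077 over all genes tested. The cytochrome P450 gene cyp3c1 had 338, 422, 466, 318 and 521 counts in controls and 428, 584, 499, 499 and 613 at 4.05 µM. It was higher in 5 of 5 pairs with overlapping groups, by 0.36 ± 0.083 on the log2 scale (SE; 95% interval 0.19 to 0.53). At the higher doses its means were 429 ± 98.7 at 40.5 µM and 482 ± 93.1 at 405 µM, below the 524 ± 74.3 at 4.05 µM (SD, n = 5). Of the cyp2k family, cyp2k16 differed by 0.44 ± 0.15, and cyp2k6 by 1.32 ± 0.46 on levels of 0 to 9.53 counts in controls and 3.58 to 20.9 at 4.05 µM. Such P450 genes have close copies, so how reads were split among them is uncertain.

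Among 34 oxidative stress genes none passed, and 0 had an unadjusted p under 0.05 with all replicates. Without replicate 3 there were 2, both higher at 4.05 µM, beside 467 of 19392 higher over all genes. They were NQO1, a quinone reductase gene, and SOD3 (ENSDARG00000070168), for an extracellular superoxide dismutase. NQO1 differed by 0.22 ± 0.11, and by 0.28 ± 0.13 without replicate 3. SOD3 (ENSDARG00000070168), at 1.24 to 39.6 counts in controls and 5.97 to 41.3 at 4.05 µM, differed by 0.60 ± 0.35, and by 0.79 ± 0.37 without replicate 3. For the heme oxygenase gene HMOX1 the difference was 0.18 ± 0.18. HMOX1 held 22.7 to 46.8 counts in controls and 21.5 to 69.9 at 4.05 µM. The difference of NFE2L2, the gene of the transcription factor Nrf2, was 0.11 ± 0.087. The 95% interval of NFE2L2 ran from -0.06 to 0.29.

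Of 5 cone opsins tested none passed, and 4 had estimates below 0, beside 9334 of 19583 over all genes. Their median was -0.21 beside 0.0077 over all genes. The pairs did not share this size or direction, with medians of 0.15, -0.18, -0.04, -0.66 and -0.21. Control replicate 4 was the highest control for each of the 5. The red-cone opsin opn1lw2 had 1582, 1765, 2005, 4008 and 1647 counts in controls and 1611, 1266, 1357, 2642 and 1294 at 4.05 µM. Control replicate 4 stood above all the other libraries, and 4 of 5 pairs were lower at 4.05 µM. The log2 difference of opn1lw2 was -0.39 ± 0.14 (SE; 95% interval -0.68 to -0.11), and -0.35 ± 0.14 without replicate 3.

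The green-cone opsins opn1mw1 and opn1mw2 are tandem duplicates, and their split of reads is uncertain. The opn1mw2 counts were 689, 634, 521, 1303 and 603 in controls and 594, 253, 66.5, 755 and 579 at 4.05 µM. Replicate 3 at 66.5 counts lay far below the other exposed pools, replicate 2 was the next lowest, and the other 3 lay among the control values. The log2 difference of opn1mw2 was -1.07 ± 0.48 (95% interval -2.05 to -0.08) with all replicates and -0.60 ± 0.24 (-1.09 to -0.10) without replicate 3. The neighbouring opn1mw1 had 3322 to 8997 counts in controls and 3263 to 5727 at 4.05 µM, a difference of -0.13 ± 0.13. The blue-cone opsin opn1sw2 differed by -0.21 ± 0.13. The gene named OPN1SW, a short-wavelength cone opsin, had 16915 to 43630 counts in controls and 19288 to 28173 at 4.05 µM. Its log2 difference was 0.04 ± 0.15 with all replicates and -0.07 ± 0.18 without replicate 3. The 3 cone opsins that did not pass the filter were opn1mw3, opn1mw4 and opn1lw1, all at 7.48 counts or fewer in the 10 libraries.

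**Figure D2:**
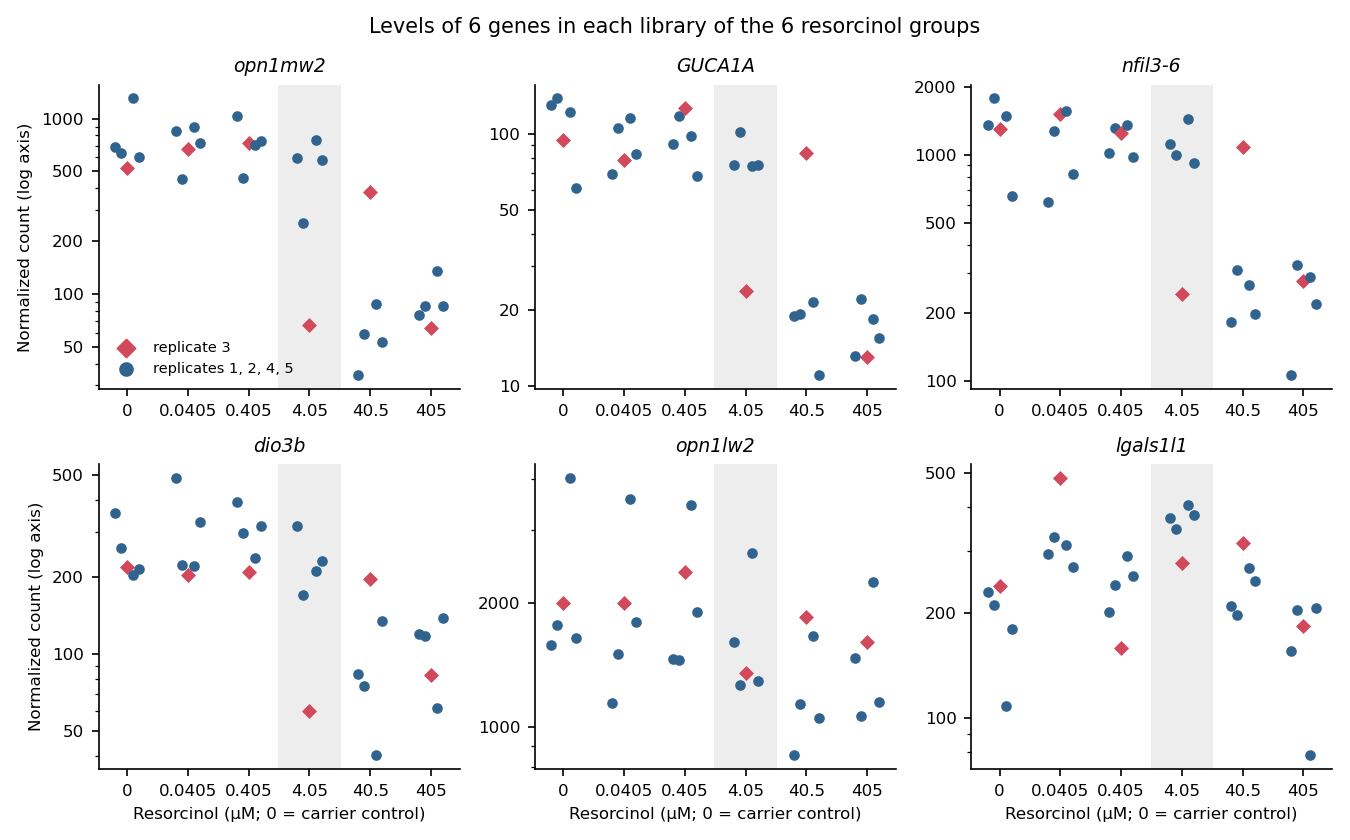
Normalized counts (log axis) of 6 genes in each library of the 6 resorcinol groups, by dose. Diamonds are replicate 3, circles the other replicates, and the grey band is 4.05 µM. For opn1mw2, GUCA1A (ENSDARG00000100747), nfil3-6 and dio3b, replicate 3 at 4.05 µM lay close to the 40.5 µM circles and replicate 3 at 40.5 µM lay above them. For lgals1l1 all 5 points at 4.05 µM lay above the 5 controls.

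Of 47 phototransduction genes none passed, 35 had estimates below 0, and the median was -0.087. Over all genes tested 9334 of 19583 had estimates below 0. The pairs did not share this direction, with medians of 0.14, -0.17, 0.02, -0.47 and 0.04. RGS9BP (ENSDARG00000086756), the anchor of the regulator that ends the light response, differed by -0.33 ± 0.15, and the cone channel subunit cngb3.2 by -0.27 ± 0.13. The mean of RGS9BP was 400 in controls and already 315 at 0.0405 and 314 at 0.405 µM, beside 318 at 4.05 µM. For cngb3.2 these means were 452, 458, 456 and 383. The opsin kinase gene GRK1 differed by -0.18 ± 0.11 and the cone channel gene CNGA3 (ENSDARG00000070726) by -0.32 ± 0.17. The inhibitory phosphodiesterase subunit pde6ha had 9385 to 28906 counts in controls and 5481 to 18889 at 4.05 µM, with the lowest value in replicate 3. Of 21 visual cycle genes 15 had estimates below 0, with a median of -0.11 and none called. RPE65 (ENSDARG00000007480), the retinoid isomerase, differed by -0.38 ± 0.20 and the retinal transporter gene ABCA4 (ENSDARG00000062661) by -0.20 ± 0.12. The retinol dehydrogenase gene RDH8 (ENSDARG00000099217) had the opposite sign, at 0.97 ± 0.36, where control replicate 1 was at 0 counts and the other 9 libraries were at 10.8 to 34.2.

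Of 25 retinal transcription factor genes none passed, and the median was -0.030. The retinal homeobox gene rx1 differed by -0.41 ± 0.16 and was lower in 5 of 5 pairs. CRX (ENSDARG00000043483), a photoreceptor homeobox gene, differed by -0.17 ± 0.11, and its highest value, 672, was in control replicate 4. The mean of CRX was 476 in controls and 390, 402 and 416 at 0.0405, 0.405 and 4.05 µM. For rx1 these means were 1307, 1373, 1028 and 968. The rod factor nrl, at 2.49 to 17.3 counts in controls and 1.66 to 10.6 at 4.05 µM, differed by -0.96 ± 0.40 and did not pass the filter without replicate 3.

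The 6 guanylate cyclase activator genes had a median of -0.15, with 4 below 0 (9334 of 19583 over all genes) and none called. GUCA1A (ENSDARG00000100747) had 129, 138, 94.2, 122 and 61 counts in controls and 75.3, 102, 23.8, 74.8 and 75.2 at 4.05 µM. Replicate 3 was the lowest of the 10 libraries, and the other 4 exposed pools lay within the control range. The difference was -0.71 ± 0.35, and -0.40 ± 0.18 without replicate 3. The gene guca1d moved from -0.87 ± 0.39 to -0.37 ± 0.29 and guca1g from -0.29 ± 0.31 to -0.05 ± 0.22 when replicate 3 was left out. The second GUCA1A gene, ENSDARG00000101567, had the opposite sign at 0.38 ± 0.30. Of the nfil3 family, bZIP repressors linked to the circadian clock, nfil3-6 had 1363, 1783, 1309, 1494 and 662 counts in controls and 1123, 998, 241, 1449 and 919 at 4.05 µM. Its difference was -0.62 ± 0.38, and -0.17 ± 0.22 without replicate 3. Its relative nfil3-5, at 1.24 to 14.8 counts in controls, differed by 0.54 ± 0.21. Of 42 circadian clock genes none had an unadjusted p under 0.05. The reverse-erbA gene nr1d4a, the bZIP gene hlfa and the melatonin synthesis gene aanat2 differed by -0.33 ± 0.19, -0.19 ± 0.11 and 0.34 ± 0.20.

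Of 30 thyroid axis genes in the table, 18 passed the filter and none passed the test. Their median was -0.092, with 11 of 18 below 0, beside 9334 of 19583 over all genes. The receptor gene THRA (ENSDARG00000000151) had 220, 177, 153, 210 and 113 counts in controls and 183, 121, 54.2, 162 and 104 at 4.05 µM. All 5 pairs were lower at 4.05 µM, replicate 3 the most, and the difference was -0.56 ± 0.21, or -0.32 ± 0.15 without replicate 3. PAX8, a thyroid and kidney transcription factor gene, differed by -0.69 ± 0.32, on 41.7 to 89.4 counts in controls and 24.1 to 56.1 at 4.05 µM. The mean of PAX8 was 69.3 in controls and 40.6, 56.0 and 42.4 at 0.0405, 0.405 and 4.05 µM, so it was lower already at the lowest dose. For THRA these means were 175, 162, 143 and 125. The type 3 deiodinase gene dio3b had 357, 260, 219, 204 and 215 counts in controls and 318, 170, 59.9, 211 and 231 at 4.05 µM. Replicate 3 held less than any other of the 10 libraries, and without it the difference was -0.16 ± 0.20, compared with -0.50 ± 0.30. The corticotropin-releasing hormone gene CRH differed by -0.30 ± 0.16, and its receptor gene CRHR1 by 0.23 ± 0.13. The second receptor gene THRB had 625 to 3102 counts in controls and 728 to 2839 at 4.05 µM. The thyroglobulin gene TG, at 3.33 to 41.3 counts in the 10 libraries, and the type 1 deiodinase gene DIO1, at 59.6 to 205, also overlapped between the groups.

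In the remaining lists no member passed either. Cholesterol synthesis had 3 of 27 genes at an unadjusted p under 0.05, all 3 lower, among them FDFT1, beside 354 of 19583 lower over all genes. Without replicate 3 there were 2, beside 281 of 19392. The list's median was -0.025. Exocrine pancreas had a median of 0.13, with spink4, a trypsin inhibitor family gene, at 0.44 ± 0.18. Muscle, liver, intestine, heat shock, cell cycle and pigment lists had medians of -0.030, 0.060, 0.088, -0.056, 0.00 and 0.00. The estrogen list, with 6 of 16 genes tested, had a median of 0.036. The lens list had a median of 0.053 over 45 genes, but its pairs ran from 1.26 in pair 1 to -0.92 in pair 2.

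**Figure D3:**
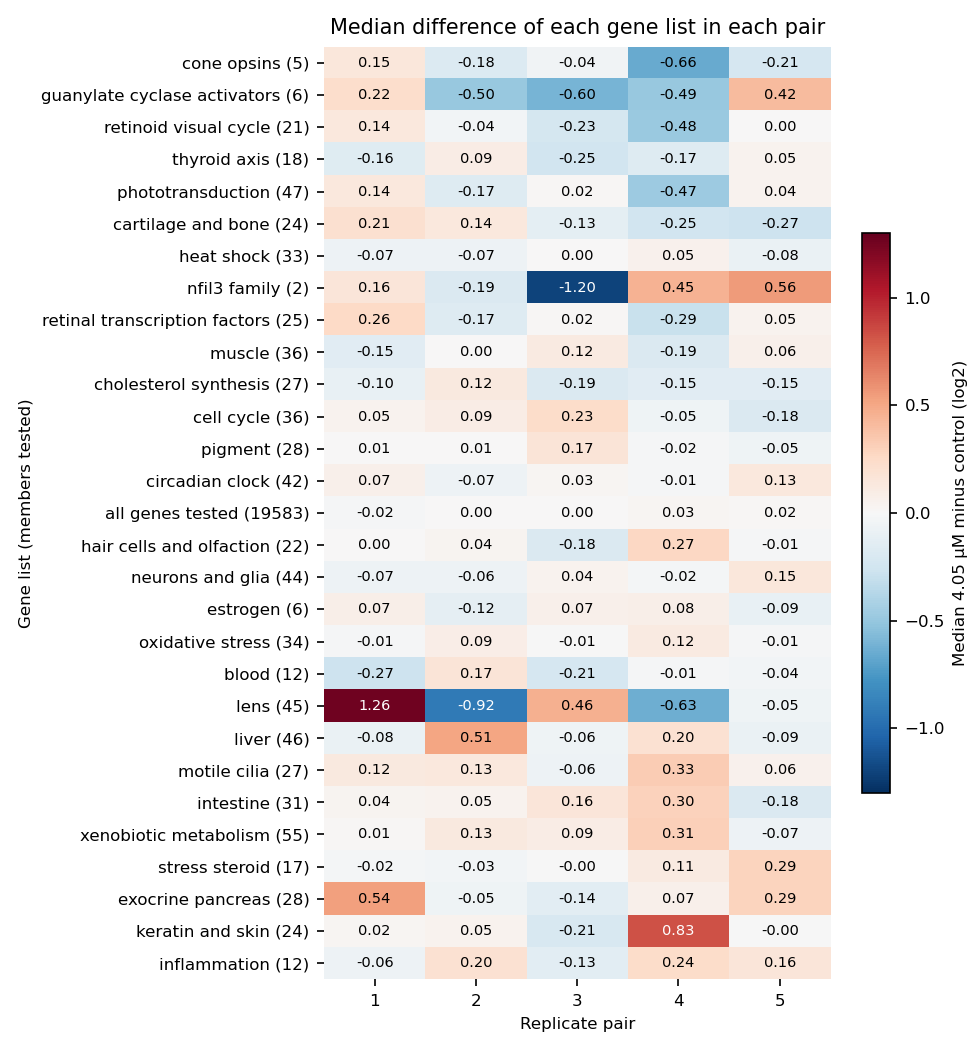
Median log2 difference of each gene list (rows, with the members tested) in each replicate pair (columns), ordered by the limma median. Blue is lower and red higher at 4.05 µM than in the control of the same number. The strongest colours stood in single pairs, such as lens in pairs 1 and 2, keratin and skin in pair 4 (0.83) and the nfil3 family in pair 3 (-1.20).

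The 2 libraries of a pair lay further apart in some pairs than in others. Over 12738 genes with a mean count of at least 50, the SD of the differences between the 2 libraries of a pair was 0.31, 0.25, 0.23, 0.46 and 0.23 log2 units in pairs 1 to 5. Pair 4 stood apart most: its difference lay over 1 log2 unit above all other pairs for 178 genes and below them for 66. Pair 1 did so for 29 and 47 genes, pair 2 for 31 and 5, pair 3 for 0 and 8, and pair 5 for 2 and 0. By this measure pair 3 was therefore quieter than pairs 1, 2 and 4, and its 8 genes were few. The overall count stayed at 0 when any one replicate number was left out, pair 4 included.

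Keratin and skin genes supplied 9 of the 178 in pair 4, out of 22 measured in that list. The macrophage gene MPEG1 (ENSDARG00000043093) led the 178. Its counts were 44.8, 82.2, 84.7, 13.1 and 134 in controls and 22.7, 86.5, 80.8, 136 and 146 at 4.05 µM, so the control of replicate 4 was the low library. In the other direction pair 4 was led by zgc:113232, with 52.5 counts in the control and 4.16 at 4.05 µM. Of 39 measured lens genes, 7 were among the 29 above the other pairs in pair 1 and 0 among the 47 below. In pair 2 lens genes were 3 of the 5 below. For crygm2d9, a lens crystallin gene, control replicate 1 held 2.49 counts and the other controls 178 to 655. The liver plasma protein gene ahsg1 was among the leaders of pair 2, at 29.5 counts in the control and 98.1 at 4.05 µM. These leading genes were chosen after their values were seen.

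**Figure D4:**
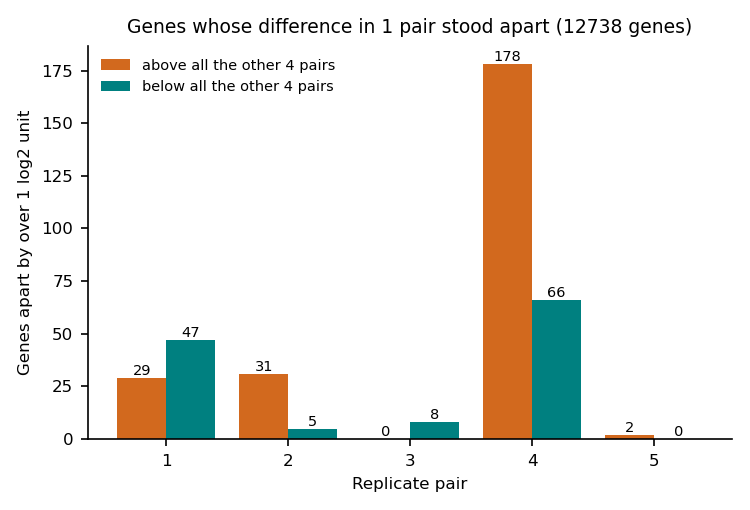
Number of genes, of 12738 with a mean count of at least 50, whose log2 difference in 1 replicate pair lay over 1 unit above or below all the other 4 pairs. Pair 4 had 178 above and 66 below, and pair 3 had 0 above and 8 below.

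The 8 genes of pair 3 were KCNV2 (ENSDARG00000062906), opn1mw2, nfil3-6, FHL2 (ENSDARG00000003991), dio3b, GUCA1A (ENSDARG00000100747), SOCS1 and si:ch211-125o16.4. KCNV2, a photoreceptor potassium channel subunit gene, had 66.0, 71.7, 49.7, 131 and 44.7 counts in controls and 56.1, 37.4, 5.70, 89.8 and 55.1 at 4.05 µM. At 40.5 µM it had 8.27, 5.50, 55.8, 7.17 and 3.01 counts. Replicate 3 thus held the lowest count of KCNV2 at 4.05 µM and the highest at 40.5 µM. Without replicate 3 the log2 difference of KCNV2 from control was -0.35 ± 0.23, compared with -0.86 ± 0.51 with it. FHL2, a LIM domain cofactor gene, differed from control by -0.31 ± 0.31 with replicate 3 and by 0.03 ± 0.17 without. For SOCS1, a suppressor of cytokine signalling, replicate 3 was low at 4.05 µM (17.1 counts), but its value without replicate 3 was also within error of 0, at -0.10 ± 0.25. On the side above the other pairs the widest gap in pair 3 was under 1 log2 unit. It included gch2, a GTP cyclohydrolase gene of pteridine pigment synthesis, at 119, 217, 174, 116 and 208 counts in controls and 128, 242, 333, 111 and 215 at 4.05 µM.

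The contrast with the next higher dose depended on replicate 3. With all replicates, 0 of 19583 genes differed between 4.05 and 40.5 µM in limma, with 769 genes under an unadjusted p of 0.05, and edgeR and DESeq2 called 0 as well. Without replicate 3 limma called 20 of 19392 (0.103%), 18 higher (0.0928%) and 2 lower (0.0103%) at 4.05 µM. Here edgeR called 20 and DESeq2 33, and limma with no replicate block called 6. Of the 20, opn1mw2 had the largest difference, at 3.17 ± 0.24 (SE; adjusted p = 4.33e-08 in limma), followed by KCNV2 (ENSDARG00000062906) at 3.12 ± 0.23. The others with a retinal or thyroid role were GUCA1A (ENSDARG00000100747) at 2.17 ± 0.18, guca1d at 2.06 ± 0.29, guca1g at 1.97 ± 0.22, dio3b at 1.55 ± 0.20, THRA (ENSDARG00000000151) at 1.17 ± 0.15, pde6ha at 1.08 ± 0.19 and the thyroid hormone carrier gene TTR at 0.92 ± 0.17. Both nfil3-6 at 2.24 ± 0.22 and FHL2 (ENSDARG00000003991) at 1.77 ± 0.17 were among them. The 2 genes lower at 4.05 µM were gch2 at -0.83 ± 0.15 and ENSDARG00000113674 at -1.01 ± 0.17. Some of these calls depended on the setting. Of 6 alternatives run, TTR and ENSDARG00000113674 passed in 1 each, and pde6ha and gch2 in 2 each. These estimates use the same 4.05 µM libraries as the contrast with control. Replicate 3 was left out after it had stood apart in these same data, so the SEs and p-values without it depend on that choice. With all replicates opn1mw2 differed by 2.03 ± 0.48 and KCNV2 (ENSDARG00000062906) by 1.88 ± 0.51 (SE; adjusted p = 0.9997 in limma for both).

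In replicate 3 the difference between the 2 doses had the opposite sign for all 20 genes, compared with 52.5% of all genes tested. For KCNV2 it was -3.08, where the other replicates gave 2.56 to 3.81. For opn1mw2 it was -2.51, where the others gave 2.09 to 4.08. The library labelled 4.05 µM replicate 3 lay nearer to the 40.5 µM median than to its own group's for 20 of the 20 genes (52.0% over all genes), as a difference from the control of its number. The library labelled 40.5 µM replicate 3 lay nearer to the 4.05 µM median for 20 of 20 (49.0% over all genes). These 20 genes were selected with replicate 3 left out, after it had been singled out, so the counts describe these libraries and are not independent evidence.

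**Figure D5:**
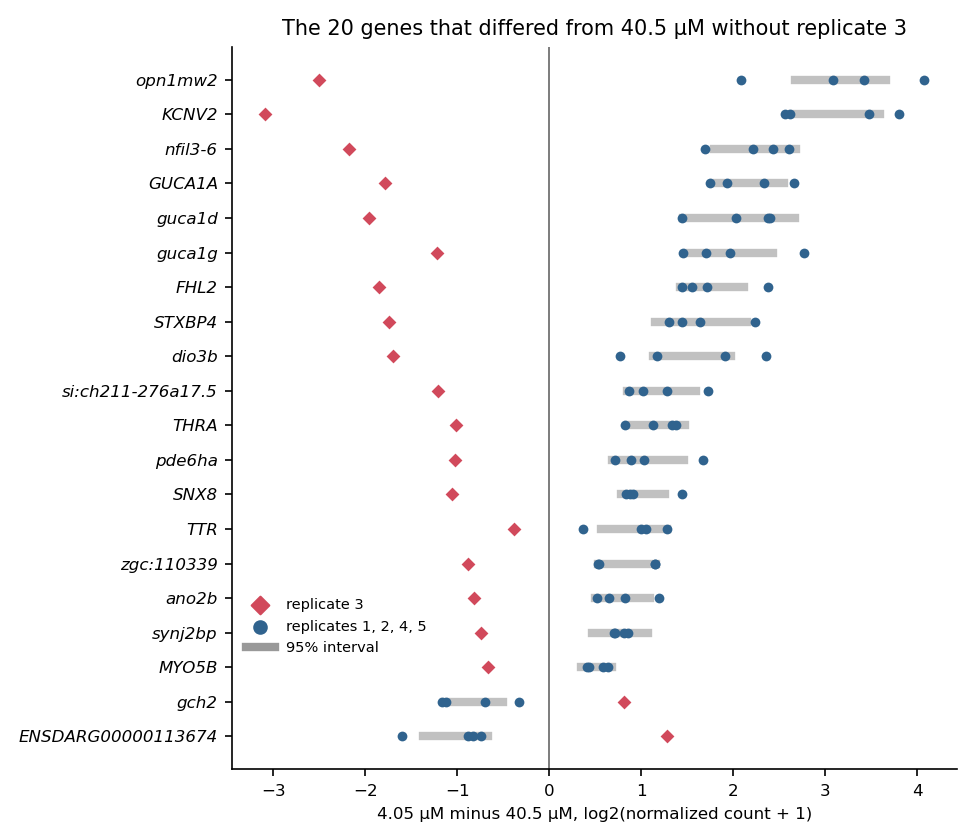
Log2 difference between 4.05 and 40.5 µM in each replicate for the 20 genes called without replicate 3. Circles are replicates 1, 2, 4 and 5, diamonds are replicate 3, and grey bars are the limma 95% interval without replicate 3. All 20 diamonds lay on the other side of 0 from the circles.

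Against the next lower dose, 0.405 µM, 0 genes passed with all replicates (478 at an unadjusted p under 0.05) and 0 without replicate 3 (406), and edgeR called 0 in both. At 0.405 µM opn1mw2 had 1039, 458, 727, 703 and 748 counts, and its log2 difference at 4.05 µM from this dose was -0.48 ± 0.24 without replicate 3. For comparison, 40.5 µM against control gave 13 called genes (0.0664%) with all replicates and 42 (0.217%) without replicate 3. In that contrast opn1mw2 fell, with a log2 difference of -3.1 with all replicates and -3.76 without replicate 3. The gene si:dkey-61n16.5, also known from the higher doses, had a mean of 324 ± 103 counts in controls (SD, n = 5). From the lowest dose to the highest its means were 290 ± 34.4, 273 ± 36.7, 428 ± 131, 609 ± 167 and 829 ± 317. Its control and 4.05 µM counts overlapped, and without replicate 3 these means were 327 ± 118 and 382 ± 90.7.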

How the data were processed

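RNA from 20 pooled larvae per sample was sequenced from stranded poly(A) libraries, per the labels' protocols. The authors deposited normalized counts: a signal per Ensembl gene in which each library's reads were scaled by a single factor. Per the submitters' processing notes, cutadapt, STAR and DESeq2 were used with GRCz11. Their order, versions, counting tool and strand setting were not given in the sources used here. At a tolerance of 0.1 read, 100% of values gave whole reads. Depth ranged from 7.78 to 12.1 M reads per resorcinol library, apart from 30.7 M in replicate 1 of 405 µM. The raloxifene table was not used here.

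Genes were tested if 5 or more libraries held a normalized count of 10 or more. Log2(normalized count + 1) was fitted with limma 3.58.1 (R 4.3.3, intensity trend) over all 30 resorcinol libraries, with the replicate number as a block, and again over 24 without replicate 3. Differences of low genes are understated on that scale. Benjamini-Hochberg adjusted p under 0.05 over all genes tested made a call. edgeR 4.0.16 and DESeq2 1.42.0 were run on recovered reads. The fit was also run on simulated data with known changes. In that simulation every library followed its label, so it does not bear on replicate 3.

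Same-number libraries were taken as pairs because the comparison was defined that way. All 75 such pairs correlated at over 0.1 in their deviations from the group mean (lowest r 0.194, median 0.591). The replicate number held 69.1% of the variance and the group 6.83%. Of library pairs within a group, chi-square per degree of freedom was lowest at 3.92. Over all 435 library pairs the lowest was 2.66, between replicate 5 of 0.0405 and of 0.405 µM. Among the control and 4.05 µM libraries it was 3.36, so no pair agreed within sampling noise.

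Symbols matched 25126 of 27488 identifiers, and the identifier is printed for the 3977 whose symbol is shared. The 28 gene lists and the named genes were chosen with earlier results of these data known. Of 993 listed symbols 850 matched, 169 of them after a final a or b was dropped. Genes were named if called, or if among the 6 largest differences in each direction with an unadjusted p under 0.01, a mean of at least 50 in a group and all pairs alike, or if known from higher doses, a cone opsin, a list member with a low p, or apart in pair 3. The alternatives left out the block or single libraries, and changed pseudocount, filter, scaling, weights and tool. A gene family that belonged to 1 of the lists is not reported here, and that list's counts leave it out. No sequence or coordinate is printed because no genome was used here.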

Additional observations from a re-analysis of the deposited data

Results flagged for a closer look

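Among the 61 genes followed in the 2 groups, 12 of 122 groups of 5 libraries held 1 library whose gap to the nearest of the others exceeded 0.71 of the group's range. Gaps and ranges were taken on log2(normalized count + 1), while the values printed below are normalized counts. With every named gene tested, 85 genes in all, 16 of 170 groups did. Chance flags about 1 in 20 groups when the values are independent draws from 1 normal distribution. Here replicate number held 69.1% of the variance and genes were partly chosen by their values, so that rate cannot be applied. Control replicate 4 was the separate library in 3 of the 12. It was the highest for opn1lw2 at 4008 normalized counts (the others 1582 to 2005) and for CRX (ENSDARG00000043483) at 672 (397 to 440), and the lowest for spink4 at 15.5 (103 to 163). Control replicate 1 was the lowest for RPE65 (ENSDARG00000007480) at 837 (1367 to 1510), for RDH8 (ENSDARG00000099217) at 0 (14.8 to 20.3) and for si:dkey-253d23.1 at 1.24 (5.29 to 8.35). At 4.05 µM, replicate 3 was the lowest for GUCA1A (ENSDARG00000100747) at 23.8 (74.8 to 102), nfil3-6 at 241 (919 to 1449) and STXBP4, a syntaxin-binding protein gene, at 25.7 (62.4 to 87.2). Replicate 1 at 4.05 µM was the lowest for RGS9BP (ENSDARG00000086756) at 121 (298 to 417), nr1d4a at 20.3 (24.1 to 25.7) and nfil3-5 at 2.39 (12.5 to 17.8). Shifts shared by a replicate number were not removed before this check. Across the 6 resorcinol groups nfil3-5 was at 1.24 to 2.58 counts in replicate 1, and spink4 at 15.5 to 48.2 in replicate 4. By contrast, nfil3-6 ran from 241 to 1523 in replicate 3. The genes of replicate 3 had been picked from earlier results of these data.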

How the results depend on the processing

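The count of 0 genes against control with all replicates was also 0 under each alternative run, and without replicate 3 under each except DESeq2, which called 1. The number of genes bounded within 2-fold ranged from 13752 to 21730 with all replicates and from 12159 to 19689 without replicate 3. Some alternatives changed the filter and with it the number of genes tested, so these counts are not shares of 1 total. Leaving out replicates 1 to 5 in turn gave 0 to 20 genes between 4.05 and 40.5 µM, the 20 without replicate 3. With replicate 3 out, leaving out a further replicate gave 11 to 17, and the fit with no replicate block gave 6. Of these 20 genes, 5 (KCNV2, nfil3-6, FHL2, opn1mw2 and GUCA1A) passed in each of the 6 alternatives run. The contrast with 0.405 µM gave 0 under every alternative run, the fit with no replicate block included.

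The differences from control of 83 named genes were recomputed, and 65 of 3352 alternative values, in 19 genes, reversed. The 59 of them that are followed here were chosen after these results had been seen: 21 of their 2376 values (0.884%) reversed, compared with 44 of 976 (4.51%) for the 24 left out. Beside them si:dkey-253d23.1 and si:ch211-245n8.4 were added after their values were seen, and 0 of their values reversed. The cause of the reversals was not tested. Leaving out replicate 3 of both the 4.05 and 40.5 µM groups gave 0.073 for FHL2 (ENSDARG00000003991), 0.020 for guca1g and -0.042 for OPN1SW. Without replicate 3, quantile normalization gave 0.024 for OPN1SW, and array weights gave -0.047 for FHL2 (ENSDARG00000003991) and 0.028 for guca1g. Leaving out single replicates or libraries gave ranges that crossed 0: -0.55 to 0.14 for FHL2 (ENSDARG00000003991), -0.49 to 0.085 for guca1g, -0.070 to 0.21 for OPN1SW and -0.032 to 0.18 for NFE2L2. With replicate 3 out, these ranges were -0.19 to 0.14, -0.24 to 0.085 and -0.18 to 0.13 for the first 3 and -0.39 to 0.050 for nfil3-6. The precision is limited by 5 pools a group and by depth for genes with few reads.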
